A study of Mus musculus with 16 samples.

Results

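Fatty acid oxidation in mitochondria and peroxisomes was described here through 38 genes, matched by symbol among the 27998 genes of the deposited matrices. All 38 were found. They were taken by organelle: 15 encode mitochondrial proteins, 16 peroxisomal proteins, 2 (Acad11 and Eci2) proteins found in both, and 5 (Acsl1, Acot1, Ppara, Plin2 and Cd36) proteins that work mainly outside both. The samples were kidneys of C57BL/6 mice, either wild type or Gulo-/-. The Gulo gene codes for the terminal enzyme of vitamin C synthesis, and mice without it need the vitamin from their diet. The labels give no age, sex, diet or treatment for either genotype, and state that kidneys were chopped and mixed before being split over the assays. Of 16 samples in 4 assays, the 4 single-cell RNA libraries (2 wild type, 2 Gulo-/-) and the authors' table of methylation regions were used. The labels do not state how many animals each library stands for. The 2 libraries of each genotype differed in sex, going by their RNA (below), so they do not stand for the same animal. The p-values cover only the spread among these libraries, in which animal, sex and technical differences are mixed. The labels name no promoter or clone behind the deletion.

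Mitochondrial β-oxidation shortens fatty acids by a cycle of dehydrogenation, hydration, a further dehydrogenation and thiolysis, and passes electrons through the flavoproteins Etfa, Etfb and Etfdh to the respiratory chain. Peroxisomes run a parallel cycle for very long and branched chains, in which an oxidase hands electrons to oxygen and catalase removes the hydrogen peroxide. The proximal tubule, which reabsorbs most of the filtered load, is known to rely on fatty acids as fuel and to be rich in both organelles, and Ppara, a nuclear receptor for fatty acids, drives many of these genes.

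The libraries held 10073836 to 88925323 UMIs (unique molecular identifiers, 1 per captured RNA molecule), and 1575 to 12403 cells remained after filtering. Each genotype had a shallow library (replicate 1) and a deep one (replicate 2). Xist and Ddx3y UMIs marked the shallow wild type and the deep Gulo-/- library as female and the other pair as male, a detail absent from the labels. The wild type libraries shared cells: 807 barcodes passed the filters in both, where 24.4 would be shared going by the other library pairs. Profiles of the same barcode correlated at a median of 0.869, against 0.605 for different barcodes. The copies in replicate 2, a male library, carried 2098 Xist UMIs and 7 Ddx3y UMIs, so they were removed from replicate 2, and results with them kept or removed from both are given where they differ. Gulo itself had 0 and 1 UMIs in wild type and 0 and 2 in Gulo-/- cells and could not check the genotype labels.

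Cells were assigned to nephron segments by marker UMIs, with 7 markers for the proximal tubule and none of the 38 members among them. The proximal tubule gate took 1289 and 5738 wild type cells and 838 and 2786 Gulo-/- cells, for replicates 1 and 2. The thick ascending limb, a distal salt-reabsorbing segment, gave 48, 215, 139 and 3933 cells in the order wild type 1, wild type 2, Gulo-/- 1, Gulo-/- 2, which holds for all values below. Proximal tubule markers such as Slc34a1 and Lrp2 were detected in all 4 proximal gates, with sums of 20986, 12746, 12047 and 12735 CPM. CPM here is the count of a gene's UMIs scaled to the total UMIs of the gate (1000000 per gate). Levels are compared for one gene between gates or libraries, never between genes, since capture differs between transcripts.

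The first comparison asked where along the nephron the pathway was expressed. Most members of both organelles were higher in the proximal tubule. Against the thick ascending limb of the same libraries, 14 of 16 peroxisomal members were higher in proximal tubule cells and 0 were lower, with a median log2 difference of 2.19. Of 15 mitochondrial members, 11 were higher, 2 were lower and 2 did not pass, with a median of 0.86. Both members found in either organelle were higher. In all, 30 of 38 members were called higher and 2 lower (edgeR quasi-likelihood test with the library as a block, Benjamini-Hochberg adjusted p under 0.05), where 25.1% of all 11829 genes tested were called higher and 23.6% lower. The median over all genes was -0.05. The difference between the 2 organelles' medians was not tested.

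The peroxisomal genes called higher in proximal cells cover several steps of the pathway. Acox2, the oxidase that starts the shortening of bile acid precursors and branched chains, stood at 25.9, 23.3, 32.1 and 38.2 CPM in proximal tubule cells and at 0, 0.917, 2.21 and 1.11 CPM in thick ascending limb cells. Every proximal value lay above every limb value, with a log2 difference of 5.24 ± 0.36 (SE, edgeR adjusted p = 1.68e-13). Acaa1b, a peroxisomal thiolase, differed by 4.67 ± 0.52 on the log2 scale, Eci3 (an enoyl-CoA isomerase) by 4.31 ± 0.37 and Pecr (a trans-2-enoyl-CoA reductase) by 4.05 ± 0.48. Ehhadh, the bifunctional hydratase and dehydrogenase induced by PPARα ligands, differed by 3.41 ± 0.29, and Hao2, a 2-hydroxyacid oxidase, by 3.37 ± 0.34. Amacr, the racemase that makes branched chains usable, differed by 3.04 ± 0.22. Cat, which encodes catalase, was at 551.0, 423.0, 447.2 and 440.1 CPM in proximal tubule cells and at 69.0, 122.8, 79.4 and 83.1 CPM in the limb.

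Not every peroxisomal member followed that order. Abcd3, a transporter that brings fatty acyl-CoA into the peroxisome, stood at 108.8, 129.7, 90.4 and 95.6 CPM in proximal cells and 97.7, 127.4, 90.4 and 88.7 CPM in limb cells. The segments lay close together in every library, and the log2 difference of 0.35 ± 0.17 did not pass (edgeR adjusted p = 0.0894). Nudt19, a coenzyme A diphosphatase, missed the threshold too (edgeR adjusted p = 0.0514). Its proximal level was 897.2 CPM in wild type replicate 2 and 114.9 to 177.4 CPM in the other libraries.

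Limb levels of several of these genes lay near those of other cell types. Macrophage and endothelial gates, whose cells are not known for these peroxisomal enzymes, held mean levels of 49.0 and 40.7 CPM for Pecr, 21.6 and 24.3 CPM for Acaa1b, and 13.9 and 21.7 CPM for Eci3. The corresponding limb means were 39.9, 19.9 and 11.8 CPM. Among the other genes named above, limb levels were at or below the higher of these gates in all 4 libraries for Amacr and in 3 for Ehhadh. They were so in 2 libraries for Acox2 and in 1 for Hao2 and for Cat. Acox2 had 0, 1, 1 and 23 limb UMIs. The source of the limb UMIs of all these genes was not tested, so their segment differences carry that limit and are not ranked here. For comparison, 12 transporter genes of the proximal tubule, which served only to split it into early and late parts, summed to 194 to 274 CPM in limb cells and 724 to 1174 CPM in proximal cells. In the endothelial gate they summed to 68.7 to 156.4 CPM and in the macrophage gate to 23.4 to 154.3 CPM, lower than in the limb.

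**Figure D1:**
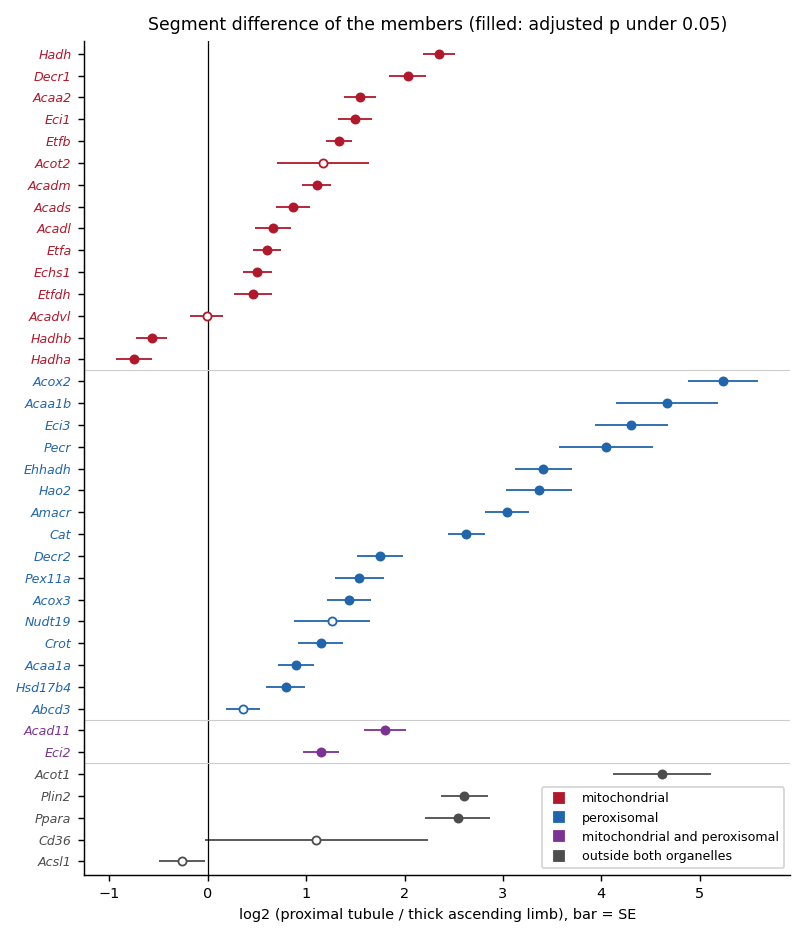
Segment difference of each member on the log2 scale (x axis, proximal tubule over thick ascending limb, bars are SE, 4 libraries), grouped and coloured by organelle. Filled points passed the test. Peroxisomal members reach 5.24 and none lies below 0, whereas Hadha and Hadhb lie at -0.75 and -0.57.

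Mitochondrial members ranged from higher in the proximal tubule to higher in the limb. Hadh, the short-chain 3-hydroxyacyl-CoA dehydrogenase, was at 636.0, 445.6, 378.2 and 495.9 CPM in proximal cells and at 126.4, 135.7, 75.0 and 125.0 CPM in limb cells. The groups of values did not overlap, and the log2 difference was 2.35 ± 0.16 (edgeR adjusted p = 3.38e-13). Decr1, the 2,4-dienoyl-CoA reductase needed for unsaturated chains, differed by 2.03 ± 0.19, the thiolase Acaa2 by 1.54 ± 0.16 and the isomerase Eci1 by 1.495 ± 0.17. The acyl-CoA dehydrogenases start each turn of the cycle and are named for the chain length they take. Acadm (medium chain) differed by 1.11 ± 0.15, Acads (short chain) by 0.86 ± 0.17 and Acadl (long chain) by 0.66 ± 0.18, all 3 higher in proximal cells. Acadvl (very long chain) stood at 155.2, 124.9, 99.5 and 172.4 CPM in proximal cells and 189.7, 182.4, 141.2 and 164.1 CPM in limb cells, and its difference of -0.01 ± 0.17 was not called. Differences between these 4 genes were not tested.

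Hadha and Hadhb, the subunits of the trifunctional protein that carries out the later steps on long chains, were the members called higher in the limb. Hadha stood at 75.9, 44.9, 70.9 and 89.4 CPM in proximal cells and at 218.4, 119.2, 132.4 and 124.0 CPM in limb cells. The limb value was higher in all 4 libraries, and the log2 difference was -0.75 ± 0.18 (edgeR adjusted p = 0.00105). Hadhb stood at 200.2, 111.0, 80.0 and 149.1 CPM in proximal cells against 367.8, 224.6, 165.5 and 221.8 CPM in limb cells, a log2 difference of -0.57 ± 0.16. In cells with at most 25% mitochondrial UMIs neither Hadha nor Hadhb was called. Over all settings the log2 difference lay between -0.94 and -0.51 for Hadha (edgeR adjusted p at most 0.0664) and between -0.64 and -0.42 for Hadhb (edgeR adjusted p at most 0.0914). The electron carriers Etfb, Etfa and Etfdh were higher in proximal cells by 1.33 ± 0.13, 0.60 ± 0.14 and 0.46 ± 0.19.

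Outside the organelles, Acot1 (a cytosolic acyl-CoA thioesterase) differed by 4.62 ± 0.50 on the log2 scale, Plin2 (a lipid droplet coat protein) by 2.61 ± 0.24 and Ppara by 2.54 ± 0.33. Limb levels of Acot1 and Plin2 were at or below the higher of the macrophage and endothelial gates in all 4 libraries, and those of Ppara in 1. Acsl1, which activates long-chain fatty acids with coenzyme A, stood at 74.6, 51.0, 97.1 and 136.4 CPM in proximal cells and 69.0, 137.5, 114.7 and 171.3 CPM in the limb, and was not called. Plin2 was at 113.7 to 249.5 CPM in the macrophage gate, above its proximal level of 39.8 to 107.1 CPM, and Cd36, a fatty acid transporter, was at 55.9 to 131.6 CPM in the endothelial gate. Summed over the 15 genes, mitochondrial members took 3311 to 5645 CPM in proximal cells, 1864 to 3569 CPM in the limb and 990 to 1301 CPM in endothelium. Those sums overlap between proximal tubule and limb across libraries. Within every library the proximal sum was the higher, at 5645, 3840, 3311 and 3894 CPM against 3569, 2499, 1864 and 2498 CPM. The 16 peroxisomal members took 2106 to 4149 CPM in proximal cells and 585 to 1018 CPM in the limb, and these did not overlap.

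Within the proximal tubule, cells could be split further by transporters of the early (S1, 4 markers) and late (S3, 8 markers) parts. S1-gated cells numbered 417, 1268, 264 and 1223, and S3-gated cells 15, 672, 13 and 65. With 15 and 13 S3 cells in the shallow libraries no test was run, and the values describe the libraries. Of 37 members that were tested in S1-gated cells and had at least 10 S3 UMIs over the 4 libraries, 15 were higher in S3 than in S1 in all 4 libraries and 3 were lower, where 9.37% and 14.3% of 9606 genes were. The higher ones included 7 of 16 peroxisomal and 5 of 15 mitochondrial members. Cd36 was left out of this count because it was too low to be tested in S1-gated cells. It stood at 79.9, 306.0, 81.6 and 8.34 CPM in S3 and 0.615, 26.1, 0 and 0.846 CPM in S1, higher in S3 in all 4 libraries, on 9, 1697, 6 and 2 S3 UMIs.

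Acox2 stood at 124.3, 35.2, 54.4 and 250.1 CPM in S3-gated cells and between 10.9 and 22.7 CPM in S1-gated cells. Hao2 stood at 1492.2, 234.3, 1087.6 and 1137.9 CPM in S3 and at 356.3, 154.7, 162.7 and 160.6 CPM in S1. Crot, which links medium-chain products of the peroxisome to carnitine for export to mitochondria, stood at 195.4, 196.0, 135.9 and 179.2 CPM in S3 and 62.8, 61.0, 38.8 and 47.7 CPM in S1. All 4 libraries showed S3 higher for each of these genes, though Acox2 rested on 14, 195, 4 and 60 S3 UMIs and Crot on 22, 1087, 10 and 43. The mitochondrial dehydrogenases Acadm and Acadl also lay higher in S3 in every library, at 1225.7, 560.3, 380.7 and 867.0 CPM against 375.7, 285.8, 278.6 and 351.5 CPM for Acadm. Acaa2 had the opposite order, with 133.2, 97.7, 95.2 and 95.9 CPM in S3 and 788.6, 383.7, 235.0 and 316.7 CPM in S1. Acaa1a and Ppara were the other 2 members lower in S3 throughout. The S3 UMIs were 15, 542, 7 and 23 for Acaa2, 13, 767, 6 and 28 for Acaa1a, and 1, 47, 1 and 3 for Ppara. Acaa1a and Acaa1b, Eci2 and Eci3, and Acot1 and Acot2 are close copies of each other, so their reads could have been split by the counting, and each pair's values carry that uncertainty.

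**Figure D2:**
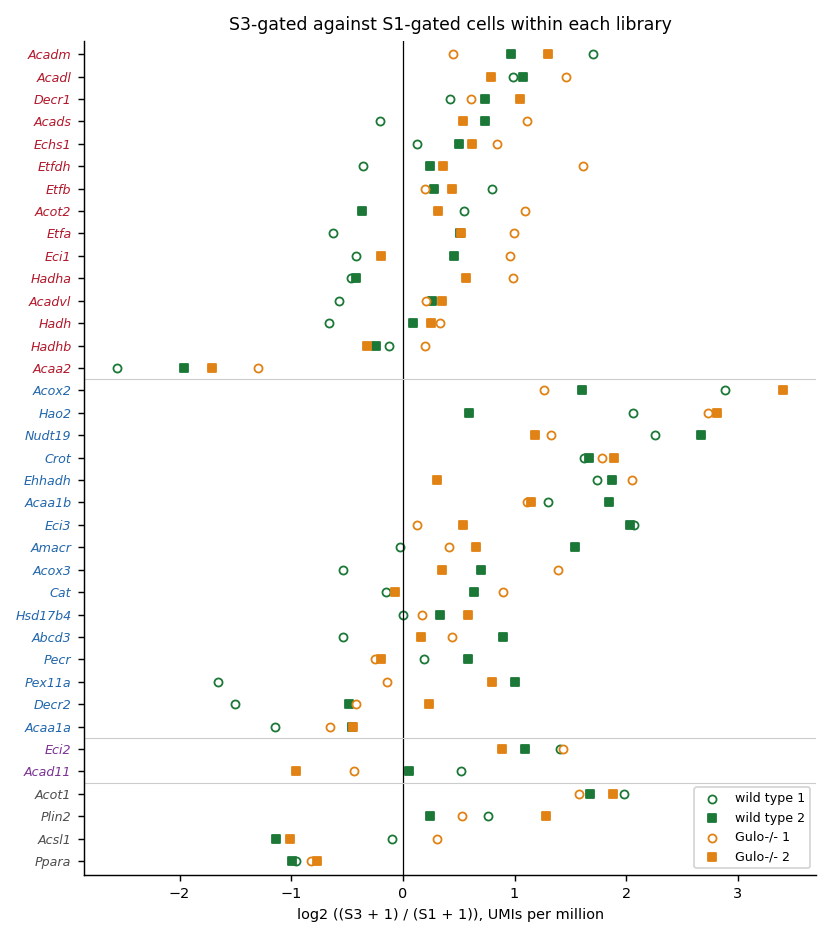
Ratio of the S3-gated to the S1-gated level within each library (x axis, log2 with 1 CPM added), for the 37 members counted, grouped by organelle. Points are libraries. Acox2, Hao2, Nudt19 and Crot lie above 0 in all 4 libraries and Acaa2, Acaa1a and Ppara below 0.

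The second comparison asked whether the pathway differed with genotype. In proximal tubule cells most members had lower fitted levels in Gulo-/-, but none passed the test: 0 of 38 were called, where 0.0452% of 11074 genes were (edgeR). At an unadjusted p under 0.05 there were 9 members, which is 23.7% of them beside 16.4% of all genes, and DESeq2 called 5 (Acads, Amacr, Eci3, Pecr and Plin2) where it called 339 of the 11074 genes. The median log2 difference (Gulo-/- over wild type) was -0.48 over the 15 mitochondrial and -0.66 over the 16 peroxisomal members, beside 0.03 over all genes. Both medians rested in part on wild type replicate 1: without it they were -0.071 and -0.358. Without wild type replicate 2 they were -0.775 and -0.715. Negative differences were found for 30 of 38 members, and for 48.0% of all genes.

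Both Gulo-/- libraries lay below both wild type libraries for 13 members, where 16.5% of all genes did, and above both for 4 members, where 34.7% did. After TMM scaling, which evens out composition between libraries, these were 16 members beside 24.7% and 2 beside 25.7%. The 13 hold 8 peroxisomal members (Abcd3, Acaa1a, Amacr, Crot, Eci3, Nudt19, Pecr and Pex11a), 4 mitochondrial ones (Acadm, Acads, Decr1 and Etfb) and Plin2. Acox2, Acsl1, Acot1 and Ppara were the 4 with the opposite order, of which Acox2 and Acsl1 kept it after TMM scaling.

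**Figure D3:**
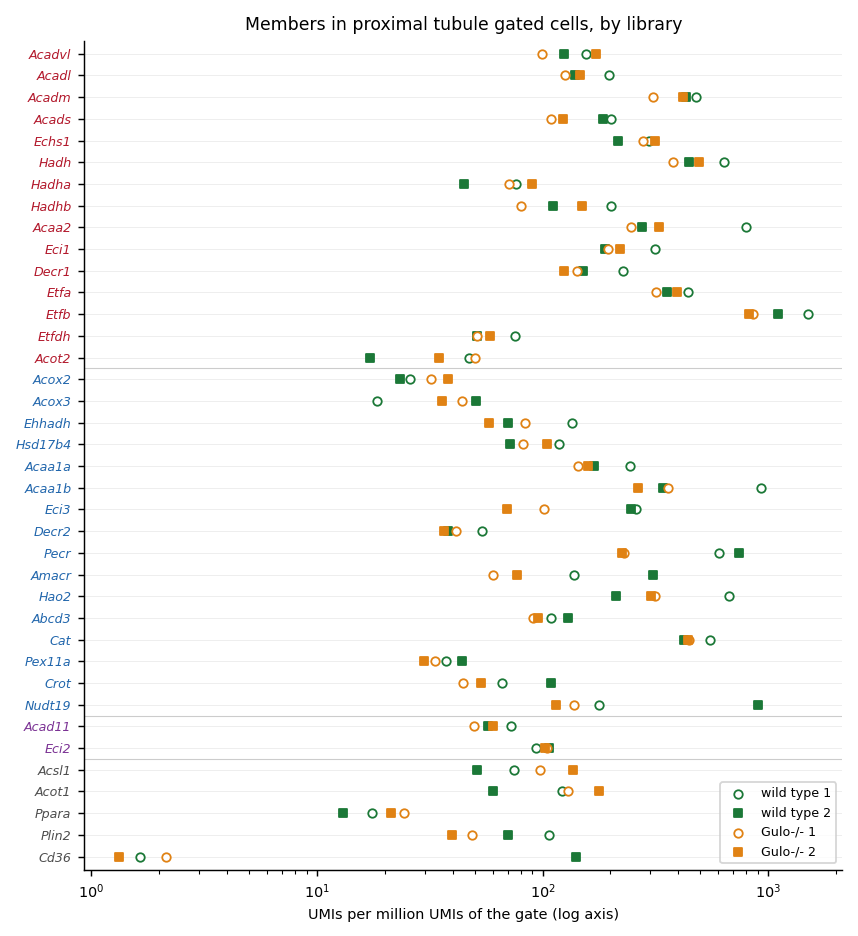
Level of each member in proximal tubule gated cells (x axis, CPM on a log axis), with 1 point per library: circles are replicate 1, squares replicate 2, green wild type and orange Gulo-/-. Pecr and Eci3 show both Gulo-/- libraries left of both wild type ones, whereas wild type replicate 2 lies far to the right for Cd36 and Nudt19.

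Pecr, Eci3 and Amacr had the lowest p-values of the peroxisomal group. Pecr stood at 608.2 and 739.6 CPM in wild type and 229.2 and 224.9 CPM in Gulo-/- proximal cells. The pairs were each close together and far apart from one another, with a log2 difference of -1.72 ± 0.25 (edgeR adjusted p = 0.0641, DESeq2 called it). Eci3 stood at 260.3 and 246.1 CPM against 101.9 and 69.7 CPM, a log2 difference of -1.71 ± 0.29 (edgeR adjusted p = 0.0802). Amacr stood at 137.3 and 309.3 CPM against 60.2 and 77.4 CPM, with an edgeR adjusted p of 0.12. Over all alternatives the adjusted p ran from 9.15e-09 to 0.376 for Pecr, from 3.67e-08 to 0.327 for Eci3 and from 1.38e-09 to 0.522 for Amacr. Within each sex, a comparison of single libraries, all 3 were lower in Gulo-/-: the log2 ratio of Pecr was -1.71 between the female libraries and -1.72 between the male ones.

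For Acaa1b, Hao2 and Acaa2, wild type replicate 1 stood apart from the other 3 libraries. Acaa1b stood at 932.6 CPM in wild type replicate 1 and 343.6, 359.7 and 265.5 CPM in the others. Hao2 stood at 673.6 CPM in that library and 211.3, 316.1 and 302.3 CPM in the others, and Acaa2 at 795.2 against 275.5, 247.6 and 329.4 CPM. For these 3 genes wild type replicate 2 lay within or below the range of the Gulo-/- libraries. Nudt19, at 177.4 and 897.2 CPM in wild type and 137.7 and 114.9 CPM in Gulo-/-, was lower in both Gulo-/- libraries, with wild type replicate 2 far above the rest. Cd36 was high in that library alone, at 141.2 CPM (5197 UMIs) against 1.65, 2.14 and 1.32 CPM. The same library had the largest share of S3-gated cells among proximal tubule cells, 11.7% against 1.16% to 2.33%, and Cd36 reached 306.0 CPM in its S3-gated cells and 26.1 CPM in its S1-gated cells. Whether that share accounts for these levels was not tested.

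Acads, the short-chain dehydrogenase, stood at 200.8 and 185.5 CPM in wild type and 108.8 and 123.0 CPM in Gulo-/-, a log2 difference of -0.90 ± 0.23 (edgeR adjusted p = 0.156). Etfb stood at 1501.3 and 1101.0 CPM against 855.3 and 822.3 CPM, and its difference of -0.80 ± 0.30 did not pass. Plin2 stood at 107.1 and 70.6 CPM against 48.9 and 39.8 CPM, with a difference of -1.17 ± 0.31 (edgeR adjusted p = 0.165). These 3 genes had groups that did not overlap. In the other direction, Acsl1 stood at 74.6 and 51.0 CPM in wild type and 97.1 and 136.4 CPM in Gulo-/-, with a difference of 0.72 ± 0.29 (edgeR adjusted p = 0.289). Eci2, Echs1 and Acox3 had fitted differences of -0.11, 0.05 and 0.07, near 0.

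The counts differed between the female and the male pair of libraries. Between the female libraries 34 of 38 members were lower in Gulo-/-, with a median log2 ratio of -0.63, and between the male ones 24 were, with a median of -0.19. Of the 15 mitochondrial members, 15 and 11 were lower. The ratios rest on 1 library each and carry no error. The share over all genes was not computed for either pair, so these counts have no background beside them. Each sex pair also sets a shallow library against a deep one, so that within a sex genotype and depth cannot be told apart. The order of depth is reversed between the pairs, so sex and depth cannot be told apart either.

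Marker levels in the proximal tubule gate also differed between genotypes. The 7 proximal tubule markers summed to less in both Gulo-/- libraries, though wild type replicate 2 lay close to them (12746 against 12047 and 12735 CPM). Of 14 lists of other cell types, 7 summed higher in both Gulo-/- libraries. Markers of the distal convoluted and connecting tubule summed to 243.9 and 269.1 CPM in wild type and 765.9 and 1014.7 CPM in Gulo-/-, and endothelial markers to at most 20.7 CPM in wild type and 140.9 and 63.2 CPM in Gulo-/-. Of the 70 genes on these lists, 21, 2, 15 and 0 were at 0 in the 4 libraries. Their part in the members' differences was not tested.

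In S1-gated cells, where the mix of early and late cells weighs less, 2 of 37 tested members passed, both lower in Gulo-/-, where 1.73% of 10111 genes passed in either direction. Pecr stood at 514.8 and 526.8 CPM in wild type and 194.2 and 205.0 CPM in Gulo-/-. The libraries of a genotype lay close together, and the log2 difference was -1.48 ± 0.27, a 2.80-fold lower level (edgeR adjusted p = 0.0231). Amacr stood at 117.5 and 157.1 CPM against 50.9 and 68.5 CPM, a log2 difference of -1.29 ± 0.26 (edgeR adjusted p = 0.0321). Over the alternatives their adjusted p ran from 2.88e-05 to 0.157 and from 0.000319 to 0.169. Without Gulo-/- replicate 1 or replicate 2 no member passed. Without wild type replicate 1 there were 5 called, among 567 of 11119 genes, and without wild type replicate 2 there were 8, among 321 of 10117 genes, where all 4 libraries gave 175 of 10111. Pecr and Amacr were among the members called in both. With shared barcodes taken out of both wild type libraries, or with sex as a term, 0 passed.

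Plin2 (edgeR adjusted p = 0.0596) and Eci3 (0.0745) came next, with log2 differences of -1.25 ± 0.29 and -1.36 ± 0.33. Nudt19, at 116.3 and 248.9 CPM against 97.1 and 94.8 CPM, had a smaller gap than in all proximal cells, -1.01 ± 0.32 against -2.20 ± 0.81. The medians in S1 were -0.44 for mitochondrial and -0.54 for peroxisomal members, beside 0.01 over all genes. Acot1 (0.87 ± 0.44), Acox2 (0.65 ± 0.32) and Acsl1 (0.64 ± 0.24) were the members with the highest positive fitted differences, and none passed. Cd36, with 2, 236, 0 and 5 UMIs, was too low to be tested.

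**Figure D4:**
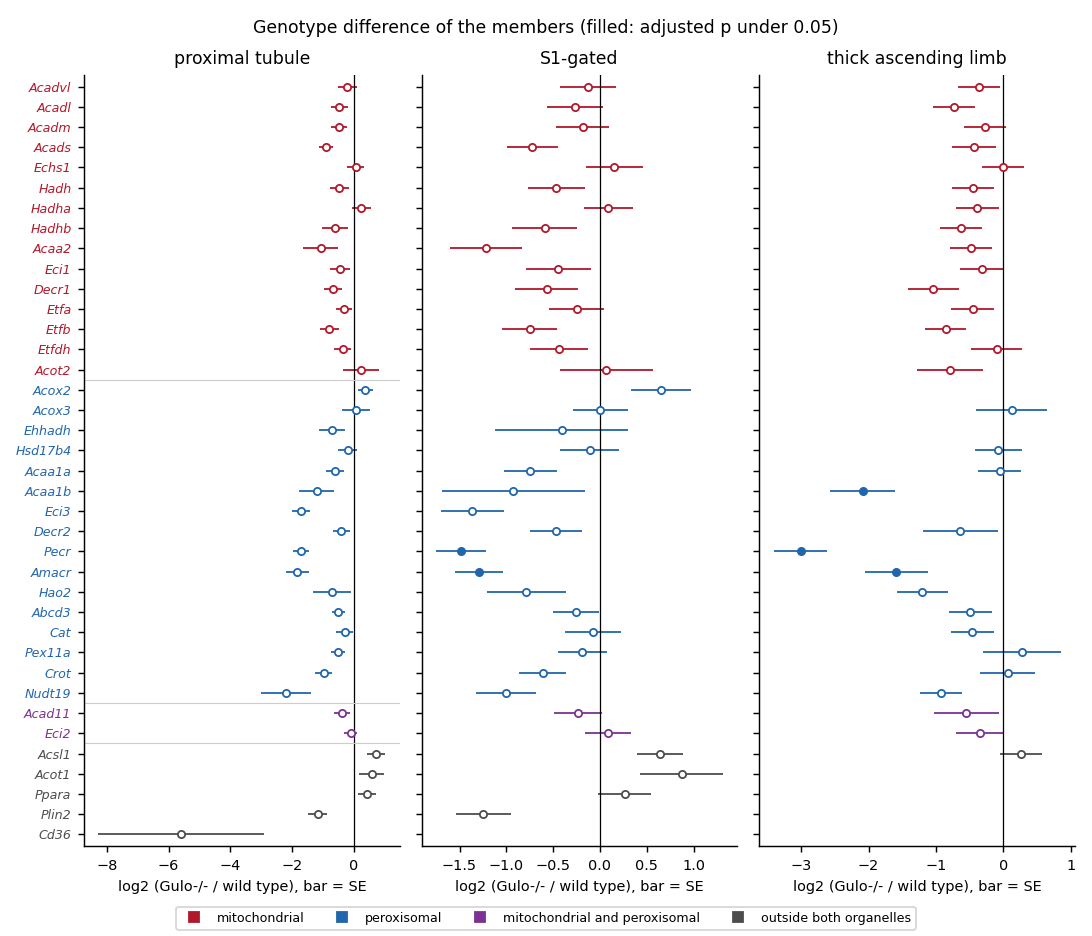
Fitted genotype difference of each member (x axis, log2 of Gulo-/- over wild type, bars are SE, 2 libraries per genotype) in proximal tubule, S1-gated and thick ascending limb cells. Filled points passed the test: Pecr and Amacr in S1-gated cells, and Pecr, Acaa1b and Amacr in limb cells, whose limb levels lie near those of the macrophage and endothelial gates. The x scale differs between panels.

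In thick ascending limb cells 3 of 31 tested members passed, all peroxisomal and lower in Gulo-/-: Pecr, Acaa1b and Amacr, where 1.97% of 6458 genes passed in either direction. Pecr stood at 17.2, 114.6, 17.6 and 10.2 CPM, so that the genotypes overlap and wild type replicate 2 alone is high. In the same libraries the macrophage gate held 39.0, 133.2, 7.58 and 16.1 CPM of Pecr. Amacr, at 5.75, 43.1, 13.2 and 12.1 CPM, overlapped too, beside 34.3, 60.3, 13.8 and 13.2 CPM in the endothelial gate. Acaa1b, at 23.0, 40.3, 6.62 and 9.83 CPM, did not overlap, beside 31.2, 38.1, 7.58 and 9.66 CPM in the macrophage gate. Limb levels were at or below the higher of the macrophage and endothelial gates in 3 of 4 libraries for Pecr and for Acaa1b and in all 4 for Amacr. The part of free RNA in these 3 calls was not tested. Without wild type replicate 2, and by DESeq2, 0 passed, with 42 of 5667 and 18 of 6458 genes called. All 15 mitochondrial members had negative fitted differences in limb cells, with a median of -0.45 beside 0.01 over all genes, and 0 of them passed. The nearest were Etfb (edgeR adjusted p = 0.172) and Decr1 (0.175), the latter at 69.0 and 59.6 CPM against 33.1 and 33.0 CPM. The wild type limb gates rest on 48 and 215 cells.

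Markers moved with genotype in the limb gate too. The 7 proximal tubule markers summed to 459.8 and 1340.3 CPM in wild type and 410.3 and 442.4 CPM in Gulo-/- limb cells, lower in both Gulo-/- libraries. Markers of the distal convoluted and connecting tubule summed to 247.1 and 375.9 CPM in wild type and 1083.2 and 1232.1 CPM in Gulo-/-. Of the 14 lists other than that of the proximal tubule, 6 summed higher in both Gulo-/- libraries. The limb's own list is 1 of these 6, at 14488.6 and 18423.5 CPM in wild type and 19082.5 and 20542.6 CPM in Gulo-/-. Among the 70 genes on the 14 lists, limb genes included, 48, 23, 31 and 1 were at 0. The part of all these markers in the limb differences was not tested.

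**Figure D5:**
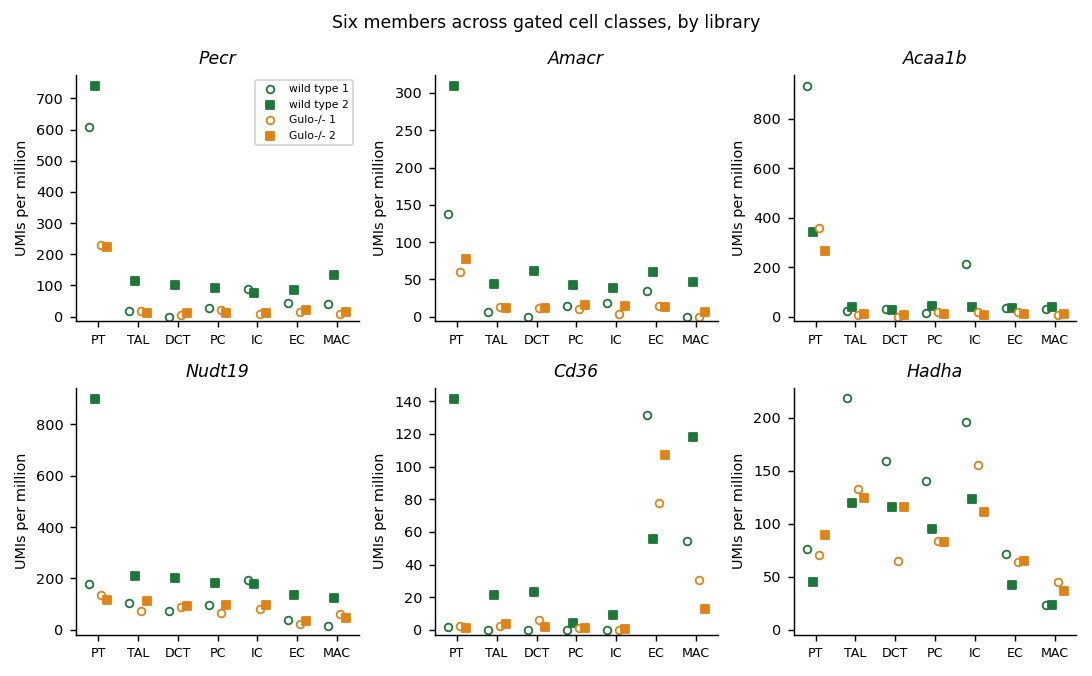
Level of 6 members (y axis, CPM, linear) in the proximal tubule (PT), thick ascending limb (TAL), distal convoluted and connecting tubule (DCT), principal (PC), intercalated (IC), endothelial (EC) and macrophage (MAC) gates, with 1 point per library. For Pecr and Amacr wild type replicate 2 is the highest library in most gates outside the proximal tubule, whereas Hadha is higher in the limb than in the proximal tubule.

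Distal convoluted and connecting tubule cells, with 20 to 423 cells per library, gave 0 called members of 22 tested, where 0.0% of 2871 genes passed. At an unadjusted p under 0.05 (edgeR) there were 2 members, which is 9.09% of those tested beside 6.76% of all genes, and DESeq2 called 0 members. The medians were -0.20 over 14 mitochondrial members and -0.47 over 6 peroxisomal ones, beside 0.02 over all genes.

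Whether the genotype difference itself differed between proximal tubule and limb was tested with an interaction term. It passed for 3 of 38 members, where 1.96% of 11829 genes passed. The difference in proximal cells was lower than in limb cells for Cd36 by -4.01 ± 0.61 (edgeR adjusted p = 9.94e-08) and for Nudt19 by -1.31 ± 0.32 (edgeR adjusted p = 0.00582), and higher for Acot1 by 1.99 ± 0.58 (edgeR adjusted p = 0.0373), all on the log2 scale. Cd36 and Nudt19 are the genes with proximal levels far higher in wild type replicate 2 than in the other libraries. Acot1 had 2, 10, 0 and 133 UMIs in limb cells, at or below its level in macrophage or endothelial gates in all 4 libraries. Without wild type replicate 2, without Gulo-/- replicate 2, and by DESeq2, 0 members passed.

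Of 109 other genes of the pathway, 101 were tested in proximal tubule cells, 0 passed and 75 had negative differences, with a median of -0.33. Of 21 other mitochondrial enzymes 18 were negative (median -0.54). Oxct1, which activates ketone bodies for oxidation, stood at 574.8 and 525.0 CPM in wild type against 140.1 and 323.1 CPM in Gulo-/-, a difference of -1.42 ± 0.39 (edgeR adjusted p = 0.184). Acat1, a mitochondrial thiolase, differed by -0.81 ± 0.26. Of 42 other peroxisomal genes tested 35 were negative (median -0.37). Scp2, which holds a peroxisomal thiolase for branched chains, stood at 1709.9 and 1566.3 CPM against 1267.4 and 1084.5 CPM, and Ephx2, a soluble epoxide hydrolase, at 176.6 and 227.0 against 89.6 and 100.7 CPM (edgeR adjusted p = 0.0866).

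Genes of uptake, activation and the carnitine shuttle showed no common direction in proximal cells, with 11 of 19 negative and a median of -0.05. Dbi, the acyl-CoA binding protein, stood at 4189.9 and 4209.2 CPM against 5810.3 and 5044.4 CPM, a difference of 0.22 ± 0.29. Fabp4, a fatty acid binding protein typical of endothelium and fat, was called higher in S1-gated cells, at 4 and 8.29 CPM against 38.2 and 37.9 CPM (2.46 ± 0.33, edgeR adjusted p = 0.00641). Endothelial markers in the same gate were also higher in both Gulo-/- libraries, with sums of 27.7 and 16.9 CPM in wild type and 167.4 and 68.9 CPM in Gulo-/-. Their order between the wild type libraries was the reverse of that of Fabp4. The part of these markers in the Fabp4 call was not tested. Among regulators and PPARα targets, Cyp4a14 stood at 131.1, 15.9, 324.1 and 195.5 CPM in proximal cells and Hnf4a at 161.4, 176.8, 222.5 and 152.4 CPM, and neither passed. Angptl4, a secreted lipase inhibitor, was called lower in S1-gated cells at 19.4 and 34.1 against 10 and 7.45 CPM (-1.79 ± 0.35, edgeR adjusted p = 0.0314). In the limb, Slc27a2, an acyl-CoA synthetase and transporter, was called lower, at 28.7, 91.7, 17.6 and 20.4 CPM, again with wild type replicate 2 standing apart, and Fabp4 was called higher. Of the 101 tested, 4 (Slc27a2, Dbi, Ephx2 and Angptl4) had interaction terms above 0 that passed and 1 (Agps) below 0, where 1.96% of 11829 genes passed. Ephx2 had 2, 66, 1 and 136 limb UMIs and Angptl4 0, 22, 0 and 16, both with wild type replicate 2 highest in CPM. Both had negative fitted differences in proximal cells. Agps stood at 84.1 CPM in proximal cells of wild type replicate 2 and at 9.5 to 13.2 CPM in the other libraries.

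In the authors' deposited table of cluster markers, 9 of the 38 members were listed, in 13 of 1919 entries and 4 of 13 clusters. The cluster named PT3 held 7 of them (Acaa1b, Amacr, Cd36, Eci3, Hao2, Nudt19 and Pecr). Nudt19 was found in 91.2% of its cells, with a natural log ratio to the other cells of 1.68 in the authors' deposited table, followed by Pecr (88.3%, 1.16). A further cluster, which the authors did not name after a cell type and which had 79 marker genes, held Acot1, Acox2, Hao2 and Acaa1b, with Hao2 in 92.9% of its cells at a natural log ratio of 1.64 in the authors' deposited table. No mitochondrial member was listed for any cluster.

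The last comparison used the authors' deposited table of 86510 methylation regions (build mm10), which compares the mean CpG methylation of 2 sides without saying which genotype is which. For each region the level of side 1 and the difference, side 1 minus side 2, are given here. There are no replicate values or coverage, so the differences carry no error and have no test here. Of the 38 members 31 had a region annotated to them, 81.6% beside 70.1% of protein-coding genes, without adjusting for gene length. They held 117 regions, of which 101 (86.3%) were lower on side 1, beside 53.8% of all regions. Within introns 55 of 60 were lower on side 1, beside 59.4% of all intron regions. Cat had 13 regions and Acsl1 12.

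At promoters, the table gave 14 regions at 13 members (34.2%, beside 25.9% of protein-coding genes), and 12 were lower on side 1, beside 78.5% of all promoter regions. 5 members had a promoter region that overlapped the RefSeq window from 250 bases before to 50 after the gene's start: Abcd3, Acadl, Acsl1, Ehhadh and Hadha. RefSeq promoter windows (build GRCm38.p6, the assembly behind mm10) were found for 34 members. Abcd3 (chr3:121815072-121815378, 22.5% on side 1, a difference of 10.1 points) and Acadl were the 2 promoters that were higher on side 1. Promoter windows of 4 of these genes, each with the CpGs inside the authors' region in capitals, show where the measured sites lie. They are shown because a CpG-dense window (Acadl), a window with few CpGs (Acsl1) and a window that overlaps that of an opposite gene (Hadha, beside Hadhb) stand beside Ehhadh. Ehhadh is a peroxisomal gene higher in proximal cells.
Ehhadh: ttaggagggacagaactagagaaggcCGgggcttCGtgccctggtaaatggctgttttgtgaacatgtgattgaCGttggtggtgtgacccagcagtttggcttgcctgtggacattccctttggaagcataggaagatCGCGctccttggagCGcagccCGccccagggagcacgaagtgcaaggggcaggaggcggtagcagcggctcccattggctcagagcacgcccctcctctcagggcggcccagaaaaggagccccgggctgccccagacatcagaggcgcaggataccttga
Acadl: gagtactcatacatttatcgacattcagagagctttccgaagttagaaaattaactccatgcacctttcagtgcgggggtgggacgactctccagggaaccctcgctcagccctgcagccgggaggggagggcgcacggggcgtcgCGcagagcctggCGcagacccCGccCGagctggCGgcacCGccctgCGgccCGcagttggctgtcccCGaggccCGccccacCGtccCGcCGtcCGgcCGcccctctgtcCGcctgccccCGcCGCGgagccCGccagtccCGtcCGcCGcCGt
Acsl1: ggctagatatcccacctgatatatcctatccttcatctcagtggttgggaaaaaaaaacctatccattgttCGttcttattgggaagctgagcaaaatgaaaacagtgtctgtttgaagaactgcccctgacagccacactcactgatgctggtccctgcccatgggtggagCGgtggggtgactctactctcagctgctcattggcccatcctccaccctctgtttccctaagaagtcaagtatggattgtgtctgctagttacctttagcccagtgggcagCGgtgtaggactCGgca
Hadha: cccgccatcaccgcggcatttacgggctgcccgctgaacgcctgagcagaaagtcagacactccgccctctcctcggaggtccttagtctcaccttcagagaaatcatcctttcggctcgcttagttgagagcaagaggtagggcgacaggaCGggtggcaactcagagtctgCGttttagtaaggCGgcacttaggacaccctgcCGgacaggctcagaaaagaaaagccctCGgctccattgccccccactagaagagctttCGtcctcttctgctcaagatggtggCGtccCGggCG
All 4 are written 5′ to 3′ on the gene's strand.

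The Ehhadh window (chr16:21787785-21788084, minus strand) holds 14 CpGs, 7 of them inside the region at chr16:21787910-21788537, whose level was 18% on side 1, a difference of -19.7 points. In the Acadl window (chr1:66863260-66863559, minus strand) 24 of 34 CpGs lie in the region at chr1:66863083-66863414, with 25.6% on side 1 and a difference of 12.0 points. The Acsl1 window (chr8:46490716-46491015, plus strand) has 4 CpGs, all inside the region at chr8:46490491-46491286, with 41.5% and -22.4 points. The Hadha window (chr5:30154931-30155230, minus strand) has 9 of its 20 CpGs in the region at chr5:30154915-30155085, with 9.42% and -10.9 points. The opposite window of Hadhb (chr5:30155003-30155302, plus strand) shares 4 CpGs with that region, so 1 region overlaps the promoter windows of both trifunctional subunits. It covers the start of Hadha and lies before the start of Hadhb.

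Of the other 9 promoter regions, those at Cd36, Nudt19 and Eci3 are given as examples, chosen after their values were seen. At Cd36 the promoter region (chr5:17836520-17836590, 4 CpGs, at -624 bases from the start) stood at 44.0% on side 1, and its difference of -41.7 points was the largest of the members' 117 regions. At Nudt19 a region of 89 CpGs (chr7:35554967-35555722) stood at 12.3% on side 1, with -13.9 points. At Eci3 a region at -1193 bases from the start stood at 20.1%, with -22.7 points. The libraries behind the RNA values differ in sex and in their share of S3 cells, and the table gives no such detail, so no relation between methylation and RNA was computed.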

How the data were processed

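Counts are the UMI counts per gene and barcode that the authors deposited, unnormalized, with no counting tool named in the labels. The submitters' processing notes name build mm10, Seurat 2.3.4 and MACS2 2.1.2. The authors' deposited tables also give cluster markers, with a natural log ratio, a p-value over cells (not used) and a fraction of cells, and methylation regions, with a mean methylation fraction of side 1, the difference between sides, the number of CpGs and the distance to a start, other values taken as deposited.

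Barcodes with at least 500 UMIs, 200 genes and at most 50% mitochondrial UMIs were kept. Barcodes of wild type replicate 2 also present in wild type replicate 1 were removed, and Scrublet (scanpy 1.11.5) scores removed the highest 0.8% for each 1000 barcodes as doublets. A cell joined the class whose markers scored highest, if the score was at least 0.1 and 1.5 times the next. S1 and S3 cells had at least 3 marker UMIs, 80% of them on one side. UMIs were summed per library and gate and tested with edgeR 4.0.16 (TMM, filterByExpr, robust quasi-likelihood) over all genes, with SE taken as the log2 difference divided by the square root of F, and with at least 20 cells in every library. On simulated counts for proximal tubule cells (10832 genes) 25% of log2 changes of 1 and 92% of changes of 2 were recovered. The simulation set the same dispersion for every gene and placed changes only in genes above a minimum expected count. It held no differences of sex or sub-segment between libraries, so recovery in the real libraries can be lower. Alternatives were DESeq2 1.42.0 and those named in the closing section. The members, lists and tests were chosen with earlier results of these data known. All 38 members could be named, and other pathway genes if called or among the 4 highest of their list in proximal tubule CPM. The m6A and bulk RNA samples were not analysed here.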

Additional observations from a re-analysis of the deposited data

Results flagged for a closer look

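The genotype difference in proximal tubule cells differed from that in thick ascending limb cells, by an interaction test in edgeR, for Cd36 (-4.01 on the log2 scale), Nudt19 (-1.315) and Acot1 (1.99). Cd36 had 12 and 5197 UMIs in wild type and 8 and 15 UMIs in Gulo-/- proximal cells, and 0, 23, 1 and 76 UMIs in limb cells. Nudt19 had 1288 and 33025 UMIs in wild type and 515 and 1303 UMIs in Gulo-/- proximal cells. For both genes the UMIs of proximal cells came mostly from wild type replicate 2. Its proximal gate was also the deepest, with 36807133 UMIs against 3739208 to 11339997 in the others. Scaled to depth, Cd36 stood at 141.2 CPM there against 1.32 to 2.14 CPM, and Nudt19 at 897.2 CPM against 114.9 to 177.4 CPM. Acot1 had 888 and 2227 UMIs in wild type and 486 and 2018 UMIs in Gulo-/- proximal cells, and 2, 10, 0 and 133 UMIs in limb cells.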

How the results depend on the processing

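The number of members called between proximal tubule and limb (32) ranged from 31 to 35 over its alternatives, and the counts of the other comparisons moved. In proximal tubule cells 0 members and 5 of 11074 genes were called, but 8 members without a filter on low counts (930 of 16985 genes), 5 with DESeq2 (339 genes), 1 with shared barcodes kept (52 of 11062 genes), and 0 to 8 without one library (7 and 507 of 12075 genes without wild type replicate 1, 8 and 238 of 11333 genes without wild type replicate 2). In S1-gated cells the 2 called members (175 genes) became 6 without a filter (675 genes), 4 with DESeq2 (189 genes), 0 with sex as a term, 1 at the 25% mitochondrial limit and 0 with shared barcodes removed from both wild type libraries, an alternative chosen after seeing the data. Without one library they were 0 to 8. In limb cells the 3 called became 0 with DESeq2, 1 with sex as a term, 0 at the 25% limit and 0 to 5 without one library. In distal convoluted and connecting tubule cells 0 became 1 without a filter and 0 to 2 without one library. The 25% limit and the stricter gate were not run there, with 7 and 12 cells in the smallest library, nor was the removal of shared barcodes from both libraries. The 3 interaction calls became 1 without a filter, 1 with shared barcodes removed from both wild type libraries, 0 with DESeq2 and 0 to 10 without one library. The peroxisomal median in proximal tubule cells (-0.66) was -0.548 with sex as a term, -0.561 at the 25% limit and -0.73 to -0.358 without one library, and the mitochondrial one (-0.477) was -0.775 to -0.071 without one library. Of the 117 methylation regions 61 differed by at least 0.2 (a methylation fraction, not points) and 14 were at promoters. Where a cause is not plain from fewer cells, genes or regions, the cause was not tested. Over all genes, limb calls were 127 of 6458, 18 with DESeq2, 118 with sex as a term and 0 at the 25% limit. Distal calls without a filter were 31 of 13817. Interaction calls over all genes were 232 of 11829, 142 of 18000 without a filter and 0 with DESeq2. With shared barcodes removed from both wild type libraries they were 189 of 10447. Where 1 library was left out, the remaining one of its genotype is assumed to vary like the others. The limb, distal and interaction ranges of those fits stand without counts over all genes and are not read as a change in the pathway.

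With the replicate number as a replicate block, 3 members were called in proximal tubule cells (267 genes), 6 in S1-gated cells (668 genes), 2 in limb cells and 0 in distal convoluted cells, and the peroxisomal median was -0.549. Replicate 1 minus replicate 2 in wild type was correlated over genes with the same difference in Gulo-/-. The correlation was -0.02 in proximal tubule, 0.02 in S1-gated, -0.05 in limb and -0.08 in distal convoluted cells. Sex runs in opposite directions in these differences, so effects of sex and of replicate number could cancel. The values therefore cannot decide whether same-numbered libraries deviate together. Fitted differences of 8 members that were not called changed sign in at least 1 alternative in proximal tubule cells, and Hao2 reached 0.44 without wild type replicate 1. In the simulated counts 25% of log2 changes of 1 were recovered in proximal tubule cells, so changes of that size can go uncalled.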
